A study of Mus musculus with 9 samples.

Results

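Kinetochore and spindle checkpoint genes encode the proteins that attach chromosomes to the spindle and delay anaphase until attachment is complete. The 38 genes described here were chosen by name and matched by NCBI Gene number among 27179 genes of a count table. All 38 were detected and passed the filter on low counts, with between 23 and 9069 reads in a library, alongside 13129 genes tested in total. The table comes from RNA immunoprecipitation sequencing (RIP-seq), in which RNA that comes down with a protein is sequenced, and the question was which RNAs associate with phosphorylated UPF1 (p-UPF1) in B cells. All libraries were made from wild-type mouse splenic B cells, obtained as CD43- cells and activated for 72 h with CD40L at 5 ug/mL (an anti-CD40 antibody in the study's methods), anti-IgM antibody at 10 ug/mL and IL-4 at 20 ng/mL. RNA was sequenced from the lysate (input, 3 libraries), from precipitates with normal rabbit IgG (3 libraries) and from precipitates with an anti-p-UPF1 antibody (3 libraries). These stimulated splenic cells stood in for B cell progenitors, which were too few for the assay, and no sample lacking UPF1 is among the libraries.

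The centromere is marked by nucleosomes holding the histone variant CENP-A, on which a constitutive centromere-associated network (CCAN) is built throughout the cell cycle. In mitosis the CCAN recruits the MIS12 complex, which links it to the NDC80 complex that grips microtubules, and unattached kinetochores recruit the checkpoint kinases and the MAD and BUB proteins that hold back the anaphase-promoting complex. The RNA helicase UPF1 takes part in several decay pathways, among them nonsense-mediated decay (NMD), and once phosphorylated it recruits the factors that degrade the RNA. A long 3' UTR, a short upstream open reading frame and an exon junction downstream of the stop codon are known features of RNAs on which UPF1 acts.

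Total counts ranged from 17372510 to 24945286 per library. Replicates correlated at r = 0.982 to 0.986 within IgG, 0.996 to 0.997 within input and 0.996 within p-UPF1 (log2 CPM across genes, which are not independent replicates). Every B cell marker in the list was detected (6 of 6), with summed levels of 3200 to 3223 CPM in input, while T cell markers summed to at most 0.917 CPM and NK and erythroid markers to at most 0.499 and 0.0843 CPM in any library. Of 5 myeloid markers only Adgre1 passed the filter, with 127 to 138 CPM in input against 85.6 to 91.3 with IgG and 56.5 to 58.6 with p-UPF1, and its part in any result was not tested. All 3 plasma cell markers passed, summing to 21.8 to 25.2 CPM in input, 23.9 to 28.3 with IgG and 18.8 to 20.1 with p-UPF1. The labels give the libraries of a group as separate samples without saying whether they came from separate cultures or mice, so the tests measure the spread between libraries, which may be technical. In such bulk samples a difference in the number of cells and in RNA per cell cannot be told apart.

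The study's methods define a p-UPF1-bound RNA by a log2 fold change (Log2FC) of 1 or more against IgG together with 2 or more against input, both at an adjusted P under 0.05. Levels are TMM-normalised CPM, counts scaled to a common library size, and each adjusted P comes from the edgeR quasi-likelihood test, corrected over the 13129 genes by the Benjamini-Hochberg method. A Log2FC of 0 stands for the typical RNA, since the amount of RNA recovered in a precipitate was not measured.

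The stop codon separates the reading frame from the 3' UTR, whose length is set beside the recovery of each RNA. The windows below, read 5' to 3' on the mRNA strand of mouse GRCm38 (mm10) from the RefSeq annotation, show the end of the reading frame, the stop codon in capitals and the first bases of the 3' UTR. They are given for the 4 subunits of the MIS12 complex, which part in opposite directions, and for 4 further mRNAs at the upper and lower ends of the range.
Nsl1: aatctcgatatgTGAgctctgtttgtt
Mis12: ctggaaacacagTGAtttctcagtaat
Dsn1: ccttccacgcagTGAtgaggatcctgt
Pmf1: agggcgcctgagTGAacagctgctggg
Cenpo: aacctggtctccTGAaaaactgtttct
Dync1li2: gaaaatgaagccTGAccctcctttgaa
Cenpq: aaacttgactccTAAagagttggattt
Cenpw: aagagcagaggtTAGgtgtcagcatgt
Each of these stop codons lies in the last exon. That of Nsl1 is at chr1:191082447-191082449 on the plus strand of the gene at chr1:191062996-191084558, and that of Mis12 at chr11:71025761-71025763 on the plus strand of the gene at chr11:71019568-71027371. Those of Dsn1 (chr2:156996196-156996198), Pmf1 (chr3:88394517-88394519), Cenpo (chr12:4214494-4214496), Dync1li2 (chr8:104420582-104420584), Cenpq (chr17:40923488-40923490) and Cenpw (chr10:30197200-30197202) are on the minus strand.

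In p-UPF1 precipitates a small number of these mRNAs were strongly over-represented, most of all Nsl1, while most of the others were under-represented. Over IgG, 8 of the 38 were higher and 25 lower, against 40.4% and 42.2% of all genes tested. At a Log2FC of 1 or more in size, 5 were higher and 7 lower, against 22.2% and 21.9% of all genes. Over input, 8 were higher and 24 lower (40.8% and 42.6% of all genes), and at a Log2FC of 2 or more in size 4 were higher and 2 lower (6.31% and 9.67%). The members' median Log2FC was -0.46 over IgG and -0.50 over input, beside -0.03 and -0.03 for all genes tested. With another scaling the median of all genes over IgG moved to -0.19 (library size alone) and that of the members to -0.62. The counts past a fold minimum depended on the scaling. With library size alone and with upper-quartile factors, 12 and 11 members were lower than IgG at a Log2FC of 1 or more in place of 7, and under both 2 were higher than input at 2 or more in place of 4. Of the 38, 21 were lower and 7 higher in both comparisons, against 37.4% and 36.1% of all genes, and the 2 comparisons share the p-UPF1 libraries.

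The 4 members that met the criterion for p-UPF1-bound RNA were Nsl1, Mis12, Cenpo and Dync1li2, against 6.25% of all genes tested. All p-UPF1 libraries exceeded all 6 others for 7 members (37.0% of all genes did so) and fell short of all 6 for 21 members (37.6% of all genes). The plot of fold changes by role shows the spread within each complex.

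**Figure D1:**
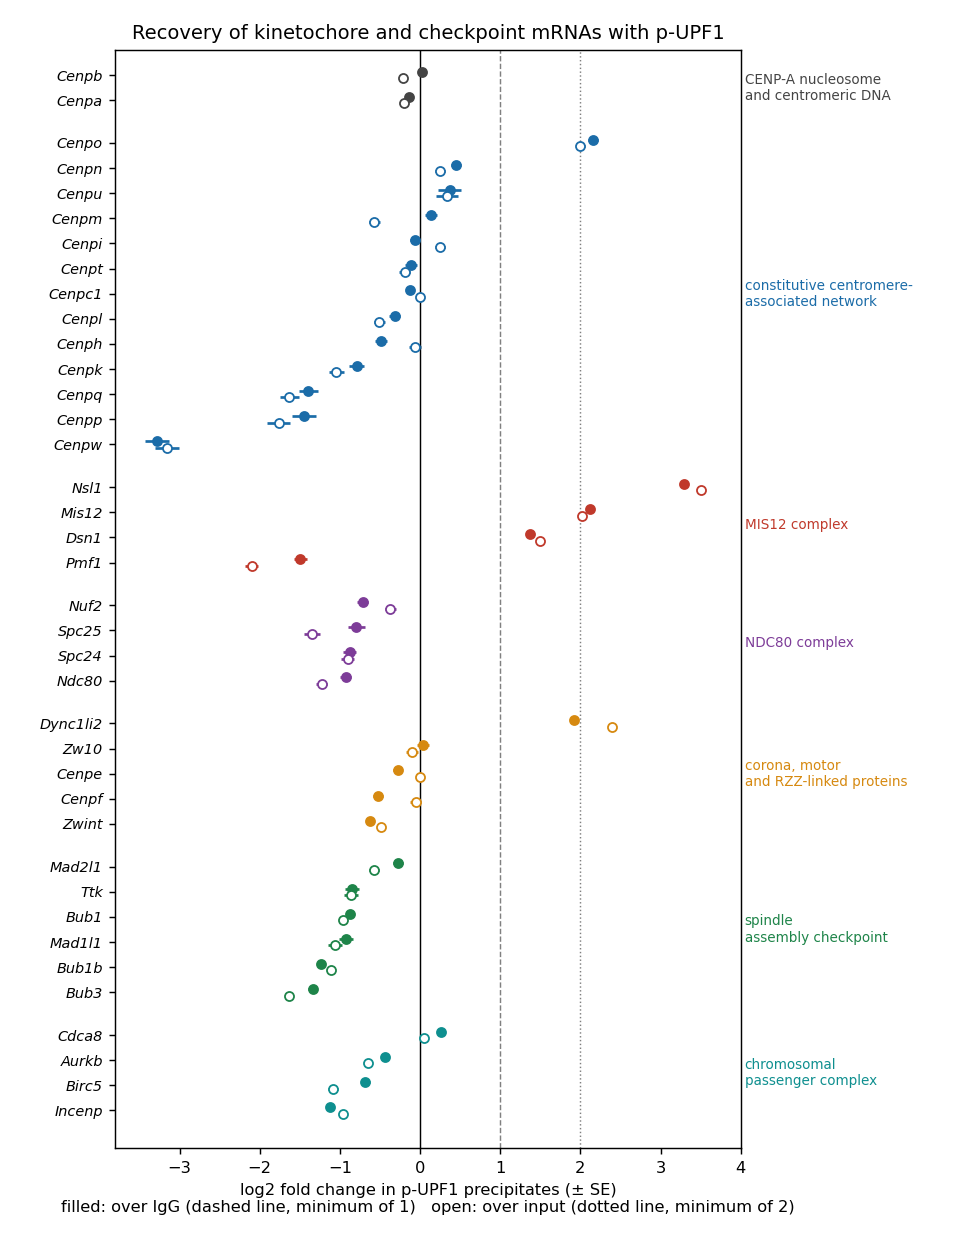
Log2 fold change with SE (bars, some shorter than the marker) of each of the 38 mRNAs in p-UPF1 precipitates over IgG (filled) and over input (open), grouped by role and ordered by the value over IgG. Nsl1, at 3.29 over IgG, is the highest and Cenpw, at -3.28, the lowest, and all 6 checkpoint and all 4 NDC80-complex mRNAs lie to the left of 0 in both comparisons.

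The subunits of the MIS12 complex fell on both sides of 0, with Log2FC over IgG from -1.49 to 3.29. Nsl1 encodes the subunit that, with the other 3, bridges the inner and outer kinetochore. Nsl1 was measured at 34.9, 33.8 and 35.6 CPM in input libraries A, B and C, at 41.2, 41.5 and 38.2 with IgG and at 382, 399 and 401 with p-UPF1. The p-UPF1 libraries thus stood far above both other groups, which themselves lay close together. Log2FC was 3.29 ± 0.05 (SE) over IgG (adjusted P = 3.7e-18) and 3.50 ± 0.05 over input (adjusted P = 1.1e-18) (edgeR quasi-likelihood test). This is a 9.78-fold difference over IgG and placed Nsl1 at rank 72 of the 13129 genes tested.

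Mis12, the subunit that names the complex, was at 60.5, 60.2 and 59.9 CPM in input, 56.1, 55.6 and 56.3 with IgG and 240.0, 247 and 245 with p-UPF1. Its groups did not overlap, and Log2FC was 2.12 ± 0.04 over IgG (adjusted P = 4.8e-17) and 2.02 ± 0.04 over input (adjusted P = 5.2e-17). Its value over input exceeded the minimum narrowly and was 1.97 with library size alone and 1.95 with upper-quartile factors, under which the criterion was not met.

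Dsn1, which anchors the complex to the CCAN under control of Aurora B, was at 40.6, 41.0 and 39.7 CPM in input, 41.8, 45.2 and 45.0 with IgG and 114, 115 and 113 with p-UPF1. All p-UPF1 libraries were above all others, at a Log2FC of 1.38 ± 0.05 over IgG (adjusted P = 6.2e-14) and 1.4997 ± 0.05 over input (adjusted P = 1.7e-14). The latter is below the minimum of 2, so Dsn1 was not called bound.

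Pmf1, the fourth subunit, went the other way. It was at 55.0, 54.0 and 54.1 CPM in input, 39.4, 31.4 and 36.3 with IgG and 13.4, 12.96 and 11.6 with p-UPF1, so that the 3 groups were fully separated in the order input, IgG, p-UPF1. Log2FC was -1.49 ± 0.08 over IgG (adjusted P = 4.7e-11) and -2.10 ± 0.08 over input (adjusted P = 2.6e-13), and IgG was itself below input at -0.61 (adjusted P = 4.1e-06). Pmf1 also had the shortest 3' UTR of the complex, 379 bases, beside 1134 for Dsn1, 1598 for Mis12 and 2109 for Nsl1.

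Within the CCAN, 13 mRNAs were measured, of which 3 were higher and 7 lower than IgG, and 4 higher and 7 lower than input, beside 40.4% and 42.2% of all genes over IgG and 40.8% and 42.6% over input. Their Log2FC over IgG spanned -3.28 to 2.16 with a median of -0.12. The high end was Cenpo, a subunit of the CENP-O/P/Q/U group that helps bring the kinase PLK1 to the centromere. Cenpo was at 23.1, 21.8 and 20.99 CPM in input, 19.2, 20.0 and 20.1 with IgG and 90.2, 89.9 and 84.4 with p-UPF1. The p-UPF1 libraries were clear of both other groups, at a Log2FC of 2.16 ± 0.06 over IgG (adjusted P = 3.1e-15) and 2.001 ± 0.06 over input (adjusted P = 4.5e-15).

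Cenpo sat at the minimum over input, and its call turned on single libraries and settings. It fell short, at 1.961 to 1.9996 over input, without input library B or C, IgG library A or C, or p-UPF1 library B. Over 22 alternatives its Log2FC over input ranged from 1.93 to 2.13 and over IgG from 1.99 to 2.20, and it met the criterion in 13 of them. In the same 22, Nsl1 and Dync1li2 met it in 22 and Mis12 in 20. These 22 leave out glmTreat, a test against the fold minima themselves, under which fewer members were bound, as given in the last section.

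The partners of Cenpo in the same group did not share its recovery. Cenpq was at 39.7, 43.7 and 38.5 CPM in input, 26.7, 39.7 and 36.9 with IgG and 13.2, 14.2 and 12.01 with p-UPF1. All p-UPF1 libraries were below all others, with IgG library A well under the other IgG libraries, and Log2FC was -1.39 ± 0.12 over IgG (adjusted P = 1.5e-08) and -1.63 ± 0.12 over input (adjusted P = 1.4e-09). Cenpp, at under 10 CPM on average, had a Log2FC of -1.45 ± 0.15 over IgG (adjusted P = 1.3e-07) from 63 to 86 reads per p-UPF1 library. Cenpu, also under 10 CPM, was slightly higher at 0.37 ± 0.14 (adjusted P = 0.025).

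Cenpw, a small histone-fold subunit that pairs with CENP-T, was the lowest of the 38. It was at 12.1, 12.2 and 12.02 CPM in input, 13.7, 13.5 and 12.4 with IgG and 1.73, 1.26 and 1.04 with p-UPF1. The last rest on 41, 28 and 23 reads against 241 to 264 in IgG libraries, so counting error limits their precision, yet the groups were far apart. Log2FC was -3.28 ± 0.15 over IgG (adjusted P = 2.7e-12) and -3.16 ± 0.15 over input (adjusted P = 4.0e-12), and 104 genes of the 13129 tested ranked at or below it over IgG. Its partner Cenpt was at -0.12 ± 0.07 over IgG, which did not pass the test (adjusted P = 0.16).

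Among the remaining CCAN mRNAs, Cenpn, whose product reads the CENP-A nucleosome, was modestly higher. It was at 25.4, 27.1 and 24.7 CPM in input, 23.4, 22.4 and 21.2 with IgG and 30.7, 30.7 and 30.1 with p-UPF1, which lay just above the other groups without overlap. Log2FC was 0.45 ± 0.07 over IgG (adjusted P = 1.0e-05) and 0.25 ± 0.06 over input (adjusted P = 0.0024). Cenpk (-0.79), Cenph (-0.48), Cenpl (-0.31) and Cenpc1 (-0.12), which encodes the scaffold CENP-C, were lower than IgG, and Cenpi (-0.07) and Cenpm (0.13) did not pass. The mRNAs for the centromere foundation moved little, with Cenpa at -0.14 ± 0.05 over IgG (adjusted P = 0.020) and Cenpb, which binds centromeric DNA, at 0.03 ± 0.04 (adjusted P = 0.57).

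All 4 mRNAs of the NDC80 complex, the microtubule-binding end of the kinetochore, were lower in both comparisons, as were 37.4% of all genes, with Log2FC over IgG between -0.93 and -0.72 and over input between -1.34 and -0.37. Ndc80, the lowest over IgG, was at 57.9, 61.4 and 58.3 CPM in input, 45.1, 48.1 and 51.4 with IgG and 27.8, 24.6 and 23.5 with p-UPF1. Its groups were separated, at -0.93 ± 0.07 over IgG (adjusted P = 2.1e-09) and -1.23 ± 0.07 over input (adjusted P = 3.6e-11). Nuf2, Spc24 and Spc25, its partners in the complex, were at -0.72, -0.88 and -0.79 over IgG.

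The 6 checkpoint mRNAs were also lower in both comparisons, as were 37.4% of all genes, with medians of -0.90 over IgG and -1.01 over input. Bub3, an adaptor that brings BUB1 and BUBR1 to kinetochores, was at 144, 145 and 147 CPM in input, 119, 125 and 112 with IgG and 44.9, 49.6 and 45.7 with p-UPF1. No p-UPF1 library came near the others, and Log2FC was -1.34 ± 0.05 over IgG (adjusted P = 3.5e-13) and -1.64 ± 0.05 over input (adjusted P = 1.9e-14). Bub1b, which encodes BUBR1 of the mitotic checkpoint complex, was at 143, 144 and 145 CPM in input, 153, 160 and 156 with IgG and 62.5, 66.05 and 71.1 with p-UPF1. It was likewise below both groups without overlap, at -1.23 ± 0.05 over IgG (adjusted P = 3.7e-13) and -1.12 ± 0.05 over input (adjusted P = 1.2e-12). The kinase mRNAs Bub1 and Ttk were at -0.88 and -0.85 over IgG and Mad1l1 at -0.92. Mad2l1, whose product binds CDC20 in the mitotic checkpoint complex, differed least at -0.28 ± 0.06 (adjusted P = 0.00061).

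Of the chromosomal passenger complex, which corrects faulty attachments through Aurora B, 3 of 4 mRNAs were lower than IgG and 1 was higher (42.2% and 40.4% of all genes). Incenp, the scaffold, was at 147, 151 and 140 CPM in input, 163, 157 and 170 with IgG and 73.9, 73.3 and 77.7 with p-UPF1. The p-UPF1 libraries lay below all others, at -1.12 ± 0.05 over IgG (adjusted P = 7.6e-13) and -0.96 ± 0.05 over input (adjusted P = 5.1e-12). Birc5 (survivin) and Aurkb were at -0.68 and -0.44 over IgG, whereas Cdca8 (borealin) was at 0.26 ± 0.05 (adjusted P = 8.4e-05), with no difference over input that passed the test (0.04 ± 0.05, adjusted P = 0.38).

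Of the 5 mRNAs for corona, motor and RZZ-linked proteins, 1 was higher and 3 were lower than IgG (40.4% and 42.2% of all genes). Dync1li2 encodes a light intermediate chain of cytoplasmic dynein, the motor that strips checkpoint proteins from attached kinetochores and that also carries cargo outside mitosis. It was at 73.9, 73.4 and 73.6 CPM in input, 93.8, 108 and 106 with IgG and 381, 379 and 404 with p-UPF1. The p-UPF1 libraries were far above both groups and IgG was above input in every library. Log2FC was 1.92 ± 0.05 over IgG (adjusted P = 2.5e-15) and 2.40 ± 0.05 over input (adjusted P = 1.9e-16). The kinetochore proteins CENP-E and CENP-F, a motor and a large corona protein, had mRNAs at -0.28 (Cenpe) and -0.53 (Cenpf) over IgG, but at 0.00 and -0.06 over input, which did not pass. Zwint was at -0.63 and Zw10 at 0.04 over IgG, of which the latter did not pass.

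**Figure D2:**
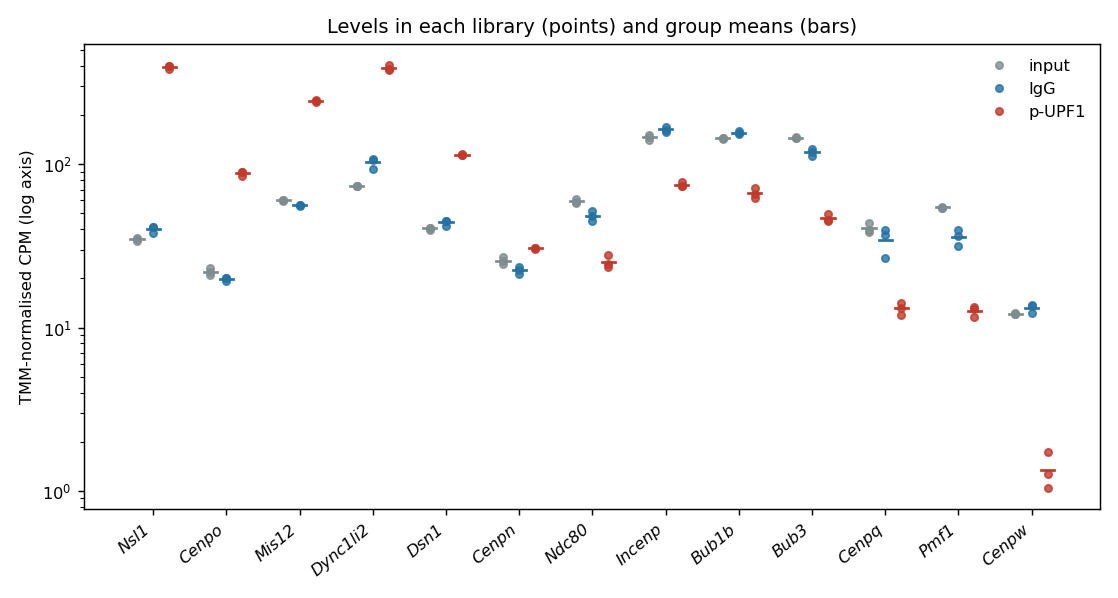
TMM-normalised CPM (log axis) of the 13 mRNAs given with full values in each library (points) with group means (bars), ordered by Log2FC over IgG. Nsl1 rises from 34.7 CPM in input to 394 in p-UPF1 precipitates, whereas Bub3 goes from 145 to 46.8 and Pmf1 from 54.4 to 12.7.

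Recovery with p-UPF1 changed the order of the mRNAs. Per kilobase of all annotated exons of the gene (their union, as counts are per gene), Bub3 had the highest level of the 38 in input (68.9 ± 0.6 CPM per kb, SD, n = 3), followed by Cdca8 (61.7 ± 1.3), Cenpa (53.8 ± 2.3) and Pmf1 (50.4 ± 0.5), and Cenpu was the least (2.31 ± 0.28). In p-UPF1 precipitates Nsl1 moved from rank 28 to rank 1 (133 ± 3.5 CPM per kb), Dync1li2 from 23 to 2 (83.8 ± 3.0) and Mis12 from 19 to 3 (81.5 ± 1.2), and the last pair did not differ beyond their spread. Bub3 moved from rank 1 to 15 and Pmf1 from 4 to 24. The order depends on the length used. Per kilobase of the RefSeq mRNA, Birc5 was the highest in input (76.3 ± 2.6) and rank 17 by the exon union, Bub3 moved from 2 to 16 (70.3 ± 0.6 in input) and Pmf1 from 5 to 25, while Nsl1 went from 29 to 1 and Dync1li2 and Mis12 again reached 2 and 3.

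Summed over all 38 genes these shifts largely cancelled. Their share of all counts (mean ± SD, n = 3) was 0.232% ± 0.000472 for input, 0.249% ± 0.00101 for IgG and 0.254% ± 0.000693 for p-UPF1. Each pair of groups was fully separated, with p = 0.1 in an exact two-sided permutation test, the smallest that 3 against 3 allows. The 4 bound members took 0.106% of counts with p-UPF1 against 0.0187% in input and 0.0233% with IgG, and the other 34 went from 0.213% and 0.226% to 0.148%. The order of the sums rests on single genes. Without Dync1li2 the share was 0.225%, 0.238% and 0.218% in input, IgG and p-UPF1, and without Nsl1 it was 0.229%, 0.245% and 0.217%, so that leaving out either made p-UPF1 the lowest. Without any 1 of Mis12, Cenpo or Dsn1, p-UPF1 fell below IgG but not below input. These sums, with each member left out in turn, were computed after the data were seen, apart from that without Dync1li2.

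Differences between IgG and input were small by comparison, which says nothing of the amount of RNA that IgG recovered. In IgG over input, 11 members were higher and 14 lower (18.2% and 34.7% of all genes), within a Log2FC of -0.71 (Cenpm) to 0.48 (Dync1li2), so none reached 1 in size, as 4.23% of all genes did. Without input library C, 7 were higher. With library size alone, either other TMM reference, no low-count filter or only the 2 groups compared, 12 were higher and 8 lower. The direction of the smallest of these differences depends on the scaling, as the median of all genes moved from -0.10 to 0.01 with library size alone, and Mis12 went from -0.10 to 0.01. Log2FC of IgG over input correlated with mRNA length across the 38 genes (Spearman rho = 0.57, beside 0.34 over 11896 genes with a curated mRNA). These are descriptions across genes of the same libraries.

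Since long 3' UTRs are a known feature of UPF1-associated RNA, the annotated mRNAs were compared. All 4 bound members had a 3' UTR over 1000 bases, with a median of 1854 bases, against 594.5 in the other 34 and 1015 in all genes. Over 1000 bases lay 29.4% of the other members, 50.4% of all genes and 78.3% of all bound genes. The 5 mRNAs at a Log2FC over IgG of 1 or more, which adds Dsn1, were all among the 14 with a 3' UTR over 1000 bases. Of these 14, 4 (28.6%) were bound, beside 9.85% of all genes in that class. Cenpo and Mis12 lost the call with library size alone and with upper-quartile factors, which left 2. None of the 14 with up to 500 bases was higher than IgG and 12 were lower, where 644 were higher and 2190 lower among the 3459 genes of that class and 1.62% were bound.

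A long 3' UTR did not go with recovery in every case. Of the 14, 6 were higher and 7 lower than IgG, where 3289 were higher and 1776 lower among the 5998 genes of that class. Cenpq, with 2679 bases, and Cenpw, with 1191, are the clearest, and Cenpf (1993 bases) and Zwint (1897) were lower too. Bub3 and Cenpo had 3' UTRs of nearly the same length, 1004 and 1014 bases, and Log2FC over IgG of -1.34 and 2.16. Across the 38 mRNAs, 3' UTR length and Log2FC over IgG had a Spearman rho of 0.35, beside 0.36 over the 11896 genes.

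**Figure D3:**
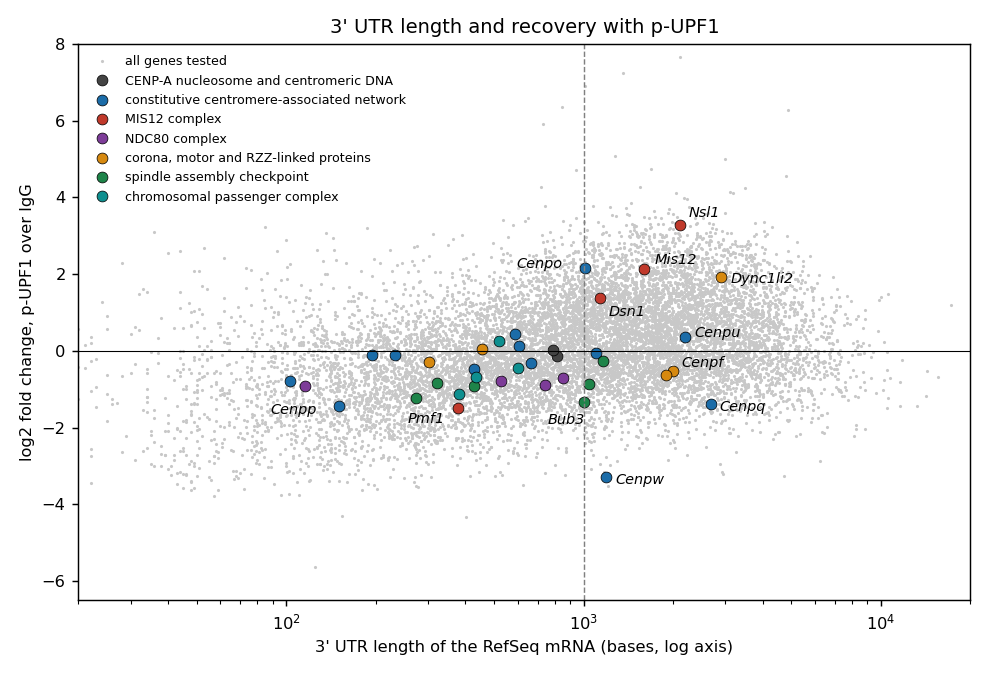
Log2 fold change of p-UPF1 over IgG against the 3' UTR length of the RefSeq mRNA (bases, log axis) for all genes tested (grey) and the 38 mRNAs (coloured by role), with a dashed line at 1000 bases. The 5 mRNAs above a Log2FC of 1 lie right of the line, and so do the low values of Cenpw and Cenpq.

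Junction position, annotated NMD isoforms and the stop codon did not separate the bound members. The stop codon lay in the last exon in 36 of 38 mRNAs, and no member had an exon junction more than 50 bases downstream of it (0.286% of all genes did). An isoform annotated as an NMD target in GENCODE was listed for 12 members (31.6%, against 29.0% of all genes), of which Dync1li2 was the bound one. The table counts reads per gene, so isoforms cannot be separated. All 5 mRNAs at a Log2FC over IgG of 1 or more end in TGA, as the windows above show, but so do Pmf1 and 57.9% of the 38, 51.7% of all genes and 60.7% of all bound genes. This feature was looked at after the values were known.

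Closed upstream reading frames were found in 39.5% of the 38 mRNAs and 40.7% of all genes. Mis12 has 7 of them, Cenpo 1, and Nsl1, Dync1li2 and Dsn1 none. The 3 shortest of Mis12 are shown because it alone among the bound mRNAs has such a series, with the start and stop codons in capitals.
Mis12 upstream frame at bases 503 to 514 of the mRNA: ATGcttactTGA
Mis12 upstream frame at bases 670 to 690: ATGagaccctggcacaaaTGA
Mis12 upstream frame at bases 687 to 713: ATGaaagagtttgaggccaacccaTAG
The last ends 61 bases before the ATG of Mis12 and overlaps the one before it. Cenpq, which was lower than both backgrounds, carries 1 such frame that ends 6 bases before its ATG, ATGtatcgttgtgattatactgttTAG. A match is a description of the letters and says nothing of use by ribosomes.

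Counts of a few members could include reads of other genes. Where counting ignored strand, reads in exons that overlap a gene on the other strand could be misassigned or left out. This applies to Mis12 (231 bases with Derl2), Cenpo (45 with Adcy3), Cenpu (1069 with Primpol), Cenpp (279 with Ippk) and Cenpk (234 with Ppwd1). Such overlap was annotated for 50.0% of the 4 bound members, 8.82% of the other 34 and 20.6% of all genes tested. The neighbours' own Log2FC over IgG were 0.49 for Derl2, 0.72 for Adcy3, 1.59 for Primpol, 1.72 for Ippk and -0.07 for Ppwd1. For Cenpu, Cenpp and Cenpk these are higher than the members' own (0.37, -1.45 and -0.79). The values of these members are uncertain, and the effect of the overlap was not tested. Sequence at 95% identity or more elsewhere in the genome, such as processed copies, covered 22.2% of the Mad2l1 mRNA, 12.4% of Nuf2, 10.7% of Cenpc1, 8.96% of Dync1li2 and 8.72% of Bub1. Its part in their counts was not tested.

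Related mitotic gene lists were set beside the 38. None of the genes in them met the bound criterion, beside 6.25% of all genes tested. Members and lists were chosen with earlier results of these data known, and no contrast between them was tested. Of 32 further kinetochore and CENP-A loading genes, 13 were higher and 16 lower than IgG, with a median Log2FC of -0.16, where 40.4% and 42.2% of all genes were higher and lower. Zwilch (1.69), the RZZ partner of Zw10, and Ska2 (1.63), which tracks microtubules with NDC80, were the highest, and Cdc20 (-1.999), the checkpoint's target, was the lowest. Hjurp, the chaperone that loads CENP-A, was at 1.37 and Mis18a, which licenses that loading, at -1.74.

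The counts of the further lists over IgG stand beside 40.4% higher and 42.2% lower among all genes tested. Of 17 genes of the anaphase-promoting complex and its enzymes, 5 were higher and 11 lower (median -0.52), from 1.68 for Cdc23 to -2.75 for Anapc13. The ubiquitin-conjugating enzymes Ube2c and Ube2s were at -2.55 and -2.43. Cohesin and separase genes gave 3 higher and 11 lower of 15 (median -0.53), from Mau2, a cohesin loader, at 1.71 to Pttg1 (securin) at -2.55. Of 17 dynein and dynactin genes tested among 18 listed, 7 were higher and 10 lower (median -0.56), from Actr1b at 1.76 to Dctn3 at -2.26, so that both directions occurred within this machinery as well, and Dync1li2 at 1.92 lay above all 17.

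**Figure D4:**
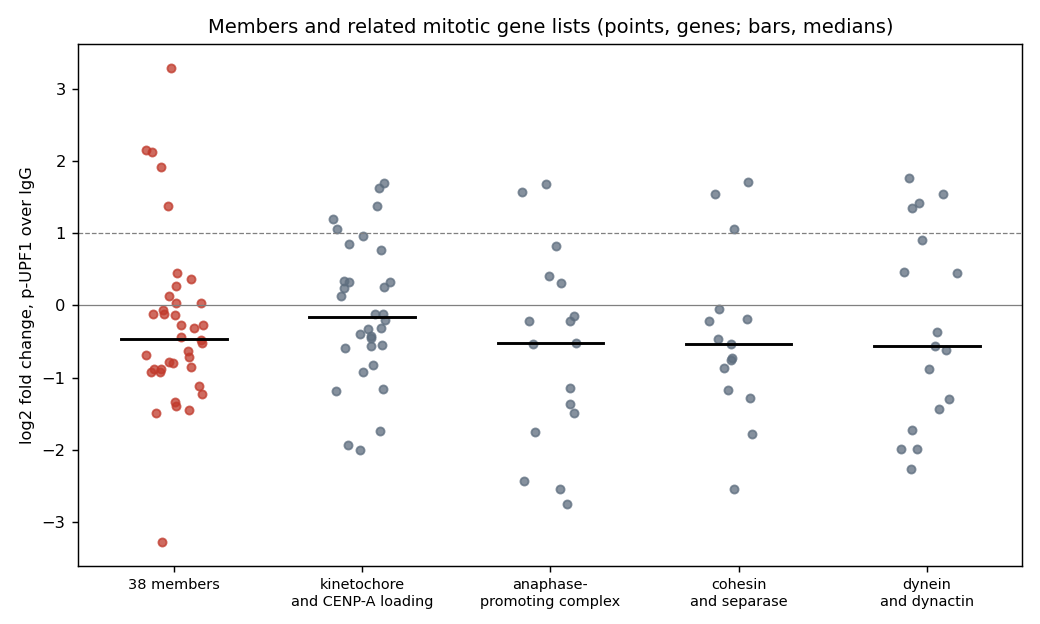
Log2 fold change of p-UPF1 over IgG for each gene (points) of the 38 and of 4 related lists, with medians (bars), a solid line at 0 and a dashed line at 1. Medians lie between -0.16 and -0.56 in all 5 sets, and the 3 highest points of the plot (Nsl1, Cenpo, Mis12) belong to the 38.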

How the data were processed

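RIP-seq counts of 9 libraries (3 input, 3 IgG, 3 p-UPF1) were analysed. The authors deposited a table of unscaled counts, 1 row per NCBI Gene number. The submitters' processing notes name cutadapt, HISAT2, featureCounts and mm10 without versions. Libraries were made with a directional kit, while the study's RNA-seq methods describe unstranded single-end alignment, and how RIP-seq reads were counted is not stated separately. Counts carry no molecular identifiers, so counting error understates the true error. Depth was 17372510 to 24945286 counts per library.

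Columns carry letters where the labels number replicates, so each was assigned to its group only. Genes were filtered with filterByExpr (minimum count 10, minimum total 15), which kept 13129 genes with 99.95% of counts, scaled by TMM and fitted together with edgeR 4.0.16 (R 4.3.3) with 6 residual degrees of freedom. Contrasts were tested two-sided by glmQLFTest with Benjamini-Hochberg adjustment. Log2FC carries a prior count of 0.125, and its SE was derived from the test statistic. CPM errors are SD over 3 libraries. The fit was tested on simulated data. Alternatives used DESeq2 1.42.0, limma 3.58.1 (voom), other scalings, filters, left-out libraries and, added after seeing the data, a block by column letter.

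The members and lists were chosen with earlier results of these data known. Full values went to bound members, the 6 highest and 6 lowest over IgG whose mean reached 10 CPM, the member with the most counts, and Cenpw, added after its values were seen. The rule also covered members with IgG over input of 1 or more in size and members at 1.5 to 2 over input, and found none. Transcript features came from the RefSeq annotation of GRCm38.p6 (1 curated mRNA per gene, 11896 genes) and isoform classes from GENCODE M21. Copies elsewhere in the genome were found with blastn 2.17.0 at 95% identity over at least 200 bases.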

Additional observations from a re-analysis of the deposited data

How the results depend on the processing

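Every p-UPF1 contrast of the 13 members given with full values kept its direction and its side of the adjusted P threshold of 0.05 (0.01 in 1 alternative) under all 22 alternatives, 286 values over IgG and 286 over input. Fold minima were crossed by Cenpo (1.93 to 2.13), Mis12 (1.95 to 2.15) and Pmf1 (-2.17 to -1.97) over input and by Ndc80 (-1.09 to -0.88) over IgG. Of the 286 values of IgG over input, 31 lost the call without changing direction and 13 gained it. In a further 3, Mis12 turned from below to above 0 and also lost its call. These were at 0.0106 with library size alone, 0.0020 with an IgG library as the TMM reference and 0.0022 with only the 2 groups compared.

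The number of bound members was 2 in place of 4 with library size alone, with upper-quartile factors and with glmTreat, and 3 to 4 when a library was left out. Members lower than IgG at a Log2FC of 1 or more numbered 12 with library size alone and 11 with upper-quartile factors in place of 7, members higher than input at 2 or more numbered 2 in place of 4 under both, and members lower than input at 2 or more numbered 1 in place of 2 with an IgG library as reference and without the low-count filter. Members lower in IgG than input numbered 8 in place of 14 with library size alone, with either other TMM reference, without the low-count filter and with only the 2 groups compared. With single libraries left out, 7 to 12 members were higher in IgG than input, the lowest without input library C. The cause was not tested. The members' share of counts, without Dync1li2, changed from 0.00533 to -0.0207 percentage points for p-UPF1 minus IgG, from 0.0224 to -0.00729 for p-UPF1 minus input and from 0.0171 to 0.0134 for IgG minus input, and without Nsl1, added after the data were seen, the first pair became -0.0279 and -0.0117. Leaving out any 1 of 5 members reversed p-UPF1 minus IgG, and any 1 of 2 reversed p-UPF1 minus input.

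The replicate numbers of the labels could not be used for pairing, as the columns carry letters. A replicate block by column letter, chosen after seeing the data (4 residual degrees of freedom), left all member counts as they were, with 4 bound, 8 higher and 25 lower than IgG, 8 higher and 24 lower than input, and 11 and 14 in IgG over input. It changed no p-UPF1 call of a member, while over input in IgG Cenpq gained (adjusted P = 0.027) and Mis12 lost the call (adjusted P = 0.053). Deviations from the group means correlated at -0.0051 to 0.0542 in the 9 same-letter pairs and at -0.056 to 0.0222 in the others. Pairs of A with A and of B with B were at 0.0316 or more, and pairs of C with C at 0.00758 or less. With the block, 10875 genes were called for p-UPF1 over IgG (10845 without), 11002 over input (10952) and 7094 in IgG over input (6950). In the study's methods, input came from the lysate used for precipitation, so libraries may be matched. Whether the letters mark such pairs cannot be told, and the main fit used no pairing. Depth limits Cenpw, Cenpp and Cenpu, which had the fewest reads.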
